A study of Arabidopsis thaliana with 9 samples.

Results

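The UDP-glycosyltransferases (UGTs) of Arabidopsis thaliana were followed in somatic embryo cultures of 3 genotypes. The members are genes with a UGT symbol and subfamily number in the reference, and a probe set of their own in the annotation used. There were 47 such genes with 47 probe sets, of 22746 probe sets tested, and they carried 11 subfamily numbers. UGT71 had 9 members, UGT76 had 8, UGT73 had 7, UGT84 and UGT85 had 5 each, UGT72 had 4, UGT74 and UGT78 had 3 each, and UGT80, UGT87 and UGT88 had 1 each. The locus AT4G14090 was not analysed here.

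There were 3 arrays for each genotype, all of them labelled as biological replicates in the Columbia ecotype. The 35S:AGL15 line expresses the MADS-domain factor AGL15 from a constitutive viral promoter, so not only in the cells that normally make it. The agl15 agl18 double mutant (agl15-4 agl18-1) lacks the function of AGL15 and of the related gene AGL18. Wild type Columbia plants were the reference for both. The submitters state that the shoot apical region forms more somatic embryos in 35S:AGL15, and fewer in the double mutant, than in wild type. Seeds of all 3 genotypes germinated in shaken liquid MS medium that held 2,4-D, a synthetic auxin, at 4.5 µM, with MES at 10 mM and sucrose at 2%. The daily cycle had 23 light hours and 1 dark hour, and tissue was frozen on day 10. The 35S:AGL15 line was thus compared in the presence of the same auxin as wild type, and cultures without 2,4-D were not analysed here. AGL15 has no probe set in the annotation used, and its own level was not analysed here.

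UGTs move a sugar, mostly glucose, from a UDP-sugar to a small molecule. In plants the acceptors include hormones such as auxin, cytokinin, abscisic acid and salicylate, phenylpropanoids such as monolignols and sinapate, flavonoids, glucosinolate precursors, sterols and foreign compounds. Glycosylation usually makes the acceptor more soluble, lets it be stored in the vacuole and lowers its activity, and the subfamily number groups enzymes by sequence similarity, not strictly by substrate.

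The deposited value of a probe set is a linear intensity, scaled so that the trimmed mean of every array is the same. The brightest of 27 bacterial control probe sets on an array was taken as its background level, and it ran from 13.7 to 40.5. By that measure 22 members were above background on all 9 arrays, 3 (UGT73C1, UGT76E1 and UGT84A1) were below it on all 9, and 22 lay in between. Between 29 and 35 members were above background on a 35S:AGL15 array, 26 to 36 on a double mutant array and 36 to 39 on a wild type array. The array medians averaged 166 ± 25.7 in 35S:AGL15, 136 ± 4.94 in the double mutant and 195 ± 6.02 in wild type (SD, n = 3 each). Spike-in controls, which are added in equal amounts, averaged 715 to 1273 on the 35S:AGL15 arrays, 1065 to 1690 on the double mutant arrays and 657 to 875 on the wild type arrays. The ratio of 3′ to 5′ actin probe sets ran from 1.33 to 2.31 and was highest on double mutant replicate 1. The part of these array differences in the results was not tested.

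Few of the listed tissue markers had a probe set of their own in the annotation used. In the embryo and seed list 2 of 12 were measured, BBM and the storage protein gene PAP85, and their summed intensity was 501 to 1050 in 35S:AGL15, 531 to 705 in the double mutant and 441 to 607 in wild type. PAP85 was above background on every array, at 190.1, 400.0 and 139.8 in 35S:AGL15 against 65.0, 52.5 and 34.7 in wild type (log2 change 2.16, limma adjusted p = 0.0382). BBM, also above background on every array, was not called. Its log2 change against wild type was 0.03 in 35S:AGL15 (limma adjusted p = 0.965) and 0.07 in the double mutant (adjusted p = 0.882). The leaf list was represented by RCA alone, at 1825 to 2649 in 35S:AGL15, 2688 to 3484 in the double mutant and 2794 to 3749 in wild type. The 2 root hair genes measured of 4 summed to 248 to 341 in 35S:AGL15, 224 to 304 in the double mutant and 151 to 246 in wild type. The shoot meristem gene CLV3, the 1 measured of 3, was below background on all 9 arrays, so the meristem in the label was not seen in its marker. RNA of leaf and root marker genes was thus present beside that of embryo genes. In bulk samples such as these fewer cells of a type and less RNA per cell cannot be told apart, and the part of tissue make-up in the UGT values was not tested.

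In 35S:AGL15 cultures 3 members fell against wild type and none rose. They were UGT74B1, UGT76E11 and UGT85A5, and 44 did not pass. The share of members called, 6.38%, stood beside 3.68% of all probe sets (2.31% of all lower and 1.38% of all higher). The median log2 change of the 47 members was −0.57, with 33 below 0 and 14 above, against a median of −0.13 over all probe sets. Over all 22746 probe sets 13551 were below 0 and 9195 above. With values under the background level raised to it, 25 of the 47 members were above 0. The arrays of the 2 genotypes did not overlap for 14 members, whereas over all probe sets 23.0% did not overlap. At an unadjusted p under 0.05 there were 13 members, beside 4038 of all 22746 probe sets.

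In the double mutant 3 members also fell and none rose. They were UGT74F1, UGT76C2 and UGT76E11. These 6.38% stood against 18.9% of all probe sets called, 15.0% lower and 3.90% higher. The median log2 change was −0.16 over the members and −0.16 over all probe sets. No overlap between genotypes was seen in 10 members (46.1% over all probe sets). An unadjusted p under 0.05 was found in 10 members and in 7800 of all 22746 probe sets. Both comparisons use the same 3 wild type arrays, so their calls are not independent.

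Set directly against the double mutant, 35S:AGL15 cultures were higher in 2 members, UGT73C7 and UGT76C2. They were lower in 6, namely UGT71C3, UGT72E1, UGT76E11, UGT76E12, UGT84A3 and UGT85A5. These 17.0% stood beside 15.7% of all probe sets called, with 10.4% of all higher and 5.27% of all lower in 35S:AGL15. The median log2 difference was −0.28 over the members and 0.08 over all probe sets. There was no overlap in 14 members (33.9% over all probe sets). An unadjusted p under 0.05 was found in 12 members and in 7130 of all 22746 probe sets. Over the 3 comparisons 10 members were called at least once and 37 never, and UGT76E11 was the 1 member called in all 3. How many of all probe sets were called at least once, or in all 3, was not counted. These member counts are thus not read as many or few.

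**Figure D1:**
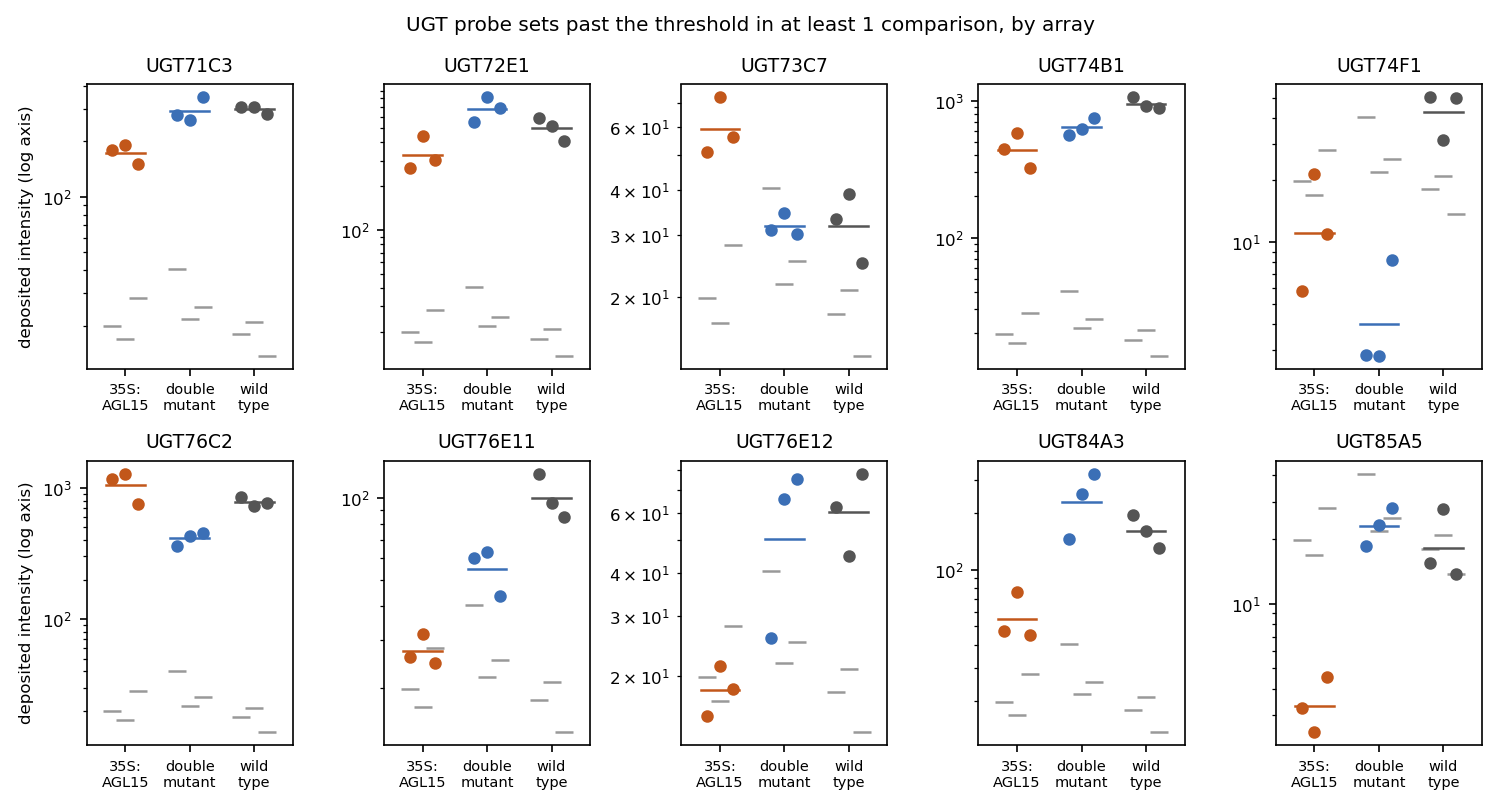
Deposited intensity (log axis) of the 10 UGT probe sets that passed the threshold in at least 1 comparison. Points are arrays, coloured bars are geometric means of 3 arrays, and short grey ticks are the background level of the same array. UGT76E11 has 3 separate levels, while all 35S:AGL15 points of UGT85A5 and all double mutant points of UGT74F1 lie below their background ticks.

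Of the 4 members grouped here as acting on salicylate or related benzoic acids, UGT74F1 fell in the double mutant. UGT71C3 was lower in 35S:AGL15 than in the double mutant. In these 2 comparisons 18.9% and 15.7% of all probe sets were called. Members were put into this and the later acceptor groups after their values were seen, each into 1 group at most. None of the 4 passed in 35S:AGL15 against wild type. UGT74F1 (AT2G43840), which glucosylates salicylate, had intensities of 5.80, 21.3 and 10.9 in 35S:AGL15, of 2.83, 2.82 and 8.21 in the double mutant, and of 50.2, 31.2 and 49.8 in wild type. All wild type arrays were above background and no double mutant array was, and neither altered genotype overlapped wild type. Its fall in the double mutant was at least 1.52-fold (limma adjusted p = 0.00697), a bound set by the background level. Its log2 change in 35S:AGL15 was −1.95 with 1 of 3 arrays above background (adjusted p = 0.118), and it passed when 35S:AGL15 replicate 2 was left out (−2.43, adjusted p = 0.0449). With low values raised to background the double mutant difference shrank to −0.60 and no longer passed.

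UGT71C3 (AT1G07260), which glucosylates methyl salicylate, had 179, 191 and 150.5 in 35S:AGL15 cultures, 278, 262 and 346 in the double mutant and 308, 308 and 281 in wild type. All 3 arrays of 35S:AGL15 lay below every array of the other genotypes, which overlapped each other. It was 1.70-fold lower in 35S:AGL15 than in the double mutant (log2 −0.76, SE 0.18, limma adjusted p = 0.0290). Against wild type the difference was of like size (−0.79) with an adjusted p of 0.0572. The call against the double mutant was lost without any double mutant array (−0.80, −0.84 and −0.64), without 35S:AGL15 replicate 1 (−0.79) or replicate 3 (−0.66), and without wild type replicate 1 or 2, and spike-in scaling cut the difference to −0.20. UGT76B1 (AT3G11340), which conjugates isoleucic acid, salicylate and N-hydroxypipecolic acid, was at 83.0, 86.0 and 63.9 in 35S:AGL15 cultures, 78.7, 183 and 226 in the double mutant and 194, 135 and 88.3 in wild type. It passed in no comparison. UGT76D1 (AT2G26480), which acts on dihydroxybenzoic acids, gave −0.66 in 35S:AGL15 cultures and −0.95 in the double mutant against wild type, also without passing (adjusted p = 0.32 and 0.0676).

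The 2 cytokinin N-glucosyltransferases UGT76C1 and UGT76C2 are neighbours on chromosome 5, and UGT76C2 alone of them was called. UGT76C2 (AT5G05860) had 1176, 1276 and 756 in 35S:AGL15 cultures, 357, 432 and 452 in the double mutant and 844, 727 and 761 in wild type. The double mutant was below both other genotypes on every array, whereas 35S:AGL15 and wild type overlapped through 35S:AGL15 replicate 3. It fell 1.88-fold in the double mutant against wild type (log2 −0.91, SE 0.23, limma adjusted p = 0.0286). It was 2.53-fold higher in 35S:AGL15 than in the double mutant (log2 1.34, SE 0.23, adjusted p = 0.0118). Its log2 change in 35S:AGL15 against wild type was 0.43 (adjusted p = 0.382). The call against wild type was lost without any 1 array of the double mutant (−0.81, −0.95 and −0.98) or of wild type (−0.85, −0.96 and −0.93), and median centring reduced the change to −0.40. UGT76C1 (AT5G05870) had 231, 257 and 167 in 35S:AGL15 cultures, 166, 138 and 181 in the double mutant and 191, 181 and 195 in wild type, with no call.

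The members put into the auxin group did not pass in any comparison. UGT74D1 (AT2G31750), which glucosylates auxin and its oxidised form, was at 354, 509 and 324 in 35S:AGL15 cultures, 262, 308 and 315 in the double mutant and 334, 310.2 and 255 in wild type. The 35S:AGL15 arrays lay above every double mutant array but overlapped wild type. UGT84B1 (AT2G23260), which makes the glucose ester of indole-3-acetic acid, was below background on 8 of 9 arrays, the exception being double mutant replicate 3 at 26.3. Of the other auxin conjugation and oxidation genes listed, 6 of 13 were measured. GH3.9, of the GH3 amido synthetase family, fell in 35S:AGL15 (log2 −1.24, limma adjusted p = 0.0193) and in the double mutant (−0.73, adjusted p = 0.0421) against wild type. GH3.17 also fell in the double mutant (−0.87, adjusted p = 0.0185). Between the altered genotypes GH3.17 was higher in 35S:AGL15 (1.04, adjusted p = 0.0144), and GH3.3 (−1.15, adjusted p = 0.0141) and GH3.1 (−1.38, adjusted p = 0.0499) were lower.

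The 3 members put into the abscisic acid group did not pass. UGT71B8 (AT3G21800) had 58.8, 56.6 and 33.1 in 35S:AGL15 cultures, 13.7, 26.8 and 30.1 in the double mutant and 7.75, 15.6 and 28.4 in wild type. The 35S:AGL15 arrays lay above those of both other genotypes without overlap, although 1 of 3 wild type arrays was above background, so no fold is given (limma adjusted p = 0.137 against wild type). UGT71C5 (AT1G07240) had 120.2, 165 and 130.0 in 35S:AGL15 cultures, 136, 262 and 260.5 in the double mutant and 272, 239 and 209 in wild type. Its 35S:AGL15 arrays were below all wild type arrays, with a log2 change of −0.80 (adjusted p = 0.197). UGT71B6 (AT3G21780) was near background everywhere, between 12.5 and 37.0.

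Of 7 members that act on phenylpropanoids, the group that feeds lignin and sinapate esters, 3 differed between 35S:AGL15 and the double mutant, where 15.7% of all probe sets were called. The members were put into this group after their values were seen. UGT84A3 (AT4G15490), which makes glucose esters of hydroxycinnamic acids, had 47.6, 75.9 and 44.9 in 35S:AGL15 cultures, 146, 251 and 323 in the double mutant and 196, 161 and 130.3 in wild type. All 35S:AGL15 arrays were far below those of both other genotypes, which overlapped. It was 4.18-fold lower in 35S:AGL15 than in the double mutant (log2 −2.06, SE 0.34, limma adjusted p = 0.0108). The log2 change against wild type was −1.56 with an adjusted p of 0.0506 in 35S:AGL15 and 0.51 (adjusted p = 0.338) in the double mutant. Spike-in scaling ended the call between the altered genotypes (−1.50, adjusted p = 0.0934).

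UGT72E1 (AT3G50740), which glucosylates coniferyl and sinapyl aldehydes, had 265, 439.8 and 300.2 in 35S:AGL15 cultures, 552, 813 and 685 in the double mutant and 587, 516 and 409.8 in wild type. The 35S:AGL15 and double mutant arrays did not overlap, and wild type overlapped both. It was 2.07-fold lower in 35S:AGL15 than in the double mutant (log2 −1.05, SE 0.26, limma adjusted p = 0.0329). The call was lost without 35S:AGL15 replicate 1 (−0.89) or replicate 3 (−0.98), without double mutant replicate 2 (−0.91) or replicate 3 (−1.04) and without wild type replicate 2, and under spike-in scaling (−0.48). UGT72E2 (AT5G66690), the main glucosyltransferase of coniferyl and sinapyl alcohols, was at 882, 863 and 706 in 35S:AGL15 cultures, 697, 1100.3 and 1001 in the double mutant and 659, 567 and 500.4 in wild type. Both altered genotypes lay above all wild type arrays without passing (log2 0.51, adjusted p = 0.288, and 0.68, adjusted p = 0.0698). UGT72E3 was above background on 2 of 9 arrays.

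UGT73C7 (AT3G53160), which glucosylates hydroxycinnamic acids and is tied to immunity, had 51.3, 72.7 and 56.3 in 35S:AGL15 cultures, 30.8, 34.5 and 30.2 in the double mutant and 33.1, 38.9 and 24.9 in wild type. Every 35S:AGL15 array was above every array of the other genotypes. It was 1.87-fold higher in 35S:AGL15 than in the double mutant (log2 0.90, SE 0.22, limma adjusted p = 0.0324), and the difference from wild type was as large (0.90, adjusted p = 0.0717). The first call rested on each of the 6 arrays compared, since leaving out any of them (0.76 to 1.01) or wild type replicate 1 raised the adjusted p past the threshold. So did median centring (0.63, adjusted p = 0.0584) and spike-in scaling (1.47, adjusted p = 0.0520). UGT84A4 (AT4G15500) passed in no comparison, at 62.0, 60.3 and 84.6 in 35S:AGL15 cultures, 70.6, 97.1 and 86.7 in the double mutant and 93.4, 110.0 and 68.9 in wild type. Of the other phenylpropanoid genes listed 2 of 19 were measured. HCT, the shikimate hydroxycinnamoyl transferase of lignin synthesis, was lower in 35S:AGL15 than in the double mutant (297, 705 and 413 against 1107, 1639 and 1694, log2 −1.72, adjusted p = 0.0203), and ALDH2C4 was not called.

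UGT76E11, which acts on flavonoids, fell against wild type in both altered genotypes, and 3 flavonoid enzymes of the UGT78 group did not pass. UGT76E11 (AT3G46670) had 26.0, 31.5 and 24.6 in 35S:AGL15 cultures, 59.9, 63.3 and 43.5 in the double mutant and 123, 95.9 and 84.8 in wild type. No 2 genotypes overlapped, with 35S:AGL15 lowest and wild type highest, and 35S:AGL15 replicate 3 was below background. It fell 3.67-fold in 35S:AGL15 (log2 −1.88, SE 0.23, limma adjusted p = 0.00807). The fall in the double mutant was 1.82-fold (−0.87, SE 0.23, adjusted p = 0.0320), and 35S:AGL15 was 2.01-fold below the double mutant (−1.01, adjusted p = 0.0242).

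The fall of UGT76E11 in 35S:AGL15 passed under all 18 alternative settings that gave it a value, with log2 changes from −2.11 to −1.16. Its fall in the double mutant was less firm. It did not pass under quantile normalization (−0.38), under median centring (−0.35), with an intensity trend in the prior, without any wild type array (−0.72, −0.90 and −0.98) or without double mutant replicate 1 (−0.93) or replicate 3 (−0.70). The difference between the altered genotypes was lost without 35S:AGL15 replicate 1 (−0.98) or replicate 3 (−0.94), without double mutant replicate 1 (−0.95) or replicate 2 (−0.91) and under spike-in scaling (−0.44).

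UGT78D2 (AT5G17050), the flavonoid 3-O-glucosyltransferase, had 143, 321 and 155 in 35S:AGL15 cultures, 374, 387 and 349 in the double mutant and 373, 338 and 263 in wild type. Replicate 2 of 35S:AGL15 stood with wild type, while replicates 1 and 3 lay below every other array. Without 35S:AGL15 replicate 2 the change against wild type became −1.11 and passed, against −0.74 with all arrays (limma adjusted p = 0.271). UGT78D1 (AT1G30530), the flavonol rhamnosyltransferase, ranged from 13.1 to 90.5 within the double mutant alone and was not called. UGT78D3, the flavonol arabinosyltransferase, was above background on 1 of 9 arrays. The 1 flavonoid pathway gene measured of 15, DFR, had 25.1, 64.6 and 65.6 in 35S:AGL15 cultures, 192, 99.0 and 50.3 in the double mutant and 139.8, 131 and 164 in wild type, with no call.

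UGT74B1 (AT1G24100) attaches the sulfur-bound glucose in glucosinolate synthesis. It had 441, 576 and 323 in 35S:AGL15 cultures, 560.4, 618 and 747 in the double mutant and 1055, 913 and 882 in wild type. Wild type was highest on every array, and the altered genotypes overlapped each other through 35S:AGL15 replicate 2. It fell 2.18-fold in 35S:AGL15 (log2 −1.12, SE 0.24, limma adjusted p = 0.0453), and the double mutant difference was −0.57 (adjusted p = 0.134). The call was lost when any array except 35S:AGL15 replicate 2 was left out, with changes from −1.18 to −0.91 and adjusted p from 0.0607 to 0.165. It was also lost under median centring (−0.88, adjusted p = 0.0581) and spike-in scaling (−1.36, adjusted p = 0.267). None of the 18 listed glucosinolate genes had a probe set of its own in the annotation used.

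The members for stress responses and foreign compounds, in subfamily UGT73, were not called. UGT73B4 (AT2G15490), which can glucosylate the explosive TNT, had 972, 807 and 479.6 in 35S:AGL15 cultures, 225, 474 and 443 in the double mutant and 701, 543 and 895 in wild type. The double mutant lay below both other genotypes without overlap, with log2 −0.95 against wild type (limma adjusted p = 0.119). Its neighbour UGT73B5 (AT2G15480), linked to redox stress and pathogen responses, had 185, 117 and 94.0 in 35S:AGL15 cultures, 46.3, 94.0 and 76.3 in the double mutant and 103, 59.1 and 135 in wild type. UGT73C1 stayed below background on all arrays. The detoxification list had 1 of 19 genes measured, the glutathione transferase GSTU25, which was higher in 35S:AGL15 than in the double mutant (log2 0.96, adjusted p = 0.0189). Of the genes that supply UDP-sugars 1 of 21 was measured, the UDP-sugar pyrophosphorylase USP, and it too was higher in 35S:AGL15 than in the double mutant (1222, 984 and 981 against 646, 679.6 and 557, log2 0.76, adjusted p = 0.0236).

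Members for which no acceptor is named here include 2 that were called. UGT85A5 (AT1G22370) had 3.26, 2.51 and 4.54 in 35S:AGL15 cultures, 18.6, 23.3 and 28.2 in the double mutant and 15.6, 27.8 and 13.8 in wild type. No 35S:AGL15 array was above background, and 2 of 3 arrays were in each other genotype. Its fall against wild type passed (limma adjusted p = 0.0120), but wild type was so near background that no fold can be bounded, and the fitted change turned to 0.15 with low values raised to background. Without 35S:AGL15 replicate 1 it missed the threshold (log2 −2.43, adjusted p = 0.0512). Against the double mutant it was at least 1.09-fold lower in 35S:AGL15 (adjusted p = 0.00482), and with low values raised to background that difference was −0.50 and did not pass (adjusted p = 0.305).

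UGT76E12 (AT3G46660) had 15.3, 21.4 and 18.4 in 35S:AGL15 cultures, 25.9, 65.9 and 75.2 in the double mutant and 62.3, 44.8 and 77.9 in wild type. Every 35S:AGL15 array was below every other array, but 1 of the 3 was above background, so no fold is given. It was lower in 35S:AGL15 than in the double mutant (limma adjusted p = 0.0478), and against wild type the log2 change was −1.73 (adjusted p = 0.0662). The call was lost without any wild type array, without any 35S:AGL15 array (−1.35, −1.59 and −1.48), and without double mutant replicate 2 (−1.28) or replicate 3 (−1.18). Spike-in scaling left −0.90.

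Among the uncalled members of this kind, UGT71C1 (AT2G29750) had 39.3, 70.2 and 50.3 in 35S:AGL15 cultures, 34.9, 44.1 and 27.8 in the double mutant and 24.5, 25.7 and 22.3 in wild type. Wild type was lowest on every array, and 35S:AGL15 gave a log2 change of 1.10 (limma adjusted p = 0.0635), which passed under quantile normalization and median centring. UGT85A2 (AT1G22360) had 502, 1006 and 317 in 35S:AGL15 cultures, 346, 405 and 277 in the double mutant and 985, 754 and 710.0 in wild type. The double mutant was below wild type without overlap (log2 −1.25, adjusted p = 0.0618), while 35S:AGL15 spread across both. UGT87A2 (AT2G30140), which acts in flowering time control, had 914, 1571 and 476 in 35S:AGL15 cultures, 1058, 1771 and 1415 in the double mutant and 1932, 1316 and 1501 in wild type, with overlap in every comparison. The sterol glucosyltransferase UGT80B1 (AT1G43620) had log2 changes of 0.14 in 35S:AGL15 cultures and 0.29 in the double mutant against wild type and no call. UGT88A1 (AT3G16520) ran from 216 to 753 within 35S:AGL15, 609 to 761 in the double mutant and 382 to 611 in wild type.

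The remaining members passed in no comparison. UGT71B1 (AT3G21750) had 168, 385 and 151 in 35S:AGL15 cultures, 263, 376 and 394 in the double mutant and 421, 335 and 284 in wild type, so that 35S:AGL15 replicate 2 stood with the other genotypes and replicates 1 and 3 below them. UGT71C4 (AT1G07250) had 212, 309 and 190.2 in 35S:AGL15 cultures, 270.2, 454 and 436 in the double mutant and 450.3, 344 and 308 in wild type, with the same array apart. UGT71B5 ran from 71.7 to 136 over all 9 arrays and UGT71C2 from 92.2 to 161. UGT73B1, UGT85A3, UGT85A4, UGT85A7 and UGT72B3 were above background on some arrays only, with 102 the highest value, in UGT85A7 on double mutant replicate 1. UGT73C2, UGT73D1, UGT76E2 and UGT84B2 were each above background on 1 of 9 arrays.

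The subfamilies are described by their median changes, with no test. In 35S:AGL15 the median log2 change against wild type was −1.12 in UGT74 (3 members), −0.74 in UGT76 and UGT78, −0.68 in UGT72, −0.57 in UGT85, −0.41 in UGT71, −0.39 in UGT84 and 0.05 in UGT73. The median of all probe sets was −0.13. UGT73 turned to −0.19 under spike-in scaling, and UGT84 to 0.29 with low values raised to background. Calls numbered 1 of 3 in UGT74, 1 of 8 in UGT76 and 1 of 5 in UGT85, where 3.68% of all probe sets were called. So few calls do not allow the subfamilies to be compared. The UGT85 call, UGT85A5, was below background on all 35S:AGL15 arrays.

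In the double mutant the medians against wild type were −0.57 in UGT74, −0.56 in UGT76, −0.44 in UGT73, −0.18 in UGT72, −0.16 in UGT85, −0.04 in UGT78, 0.02 in UGT84 and 0.06 in UGT71. The median of all probe sets was −0.16. Median centring and spike-in scaling add 1 amount to every probe set of a comparison, so a median near 0 changes sign with them, and the double mutant medians are given no direction here. Between 35S:AGL15 and the double mutant the median difference was 0.78 in UGT73, where 5 of 7 members were above 0. It was −0.28 in UGT71, where 7 of 9 were below 0. Over all 22746 probe sets 12424 were above 0 and 10322 below. The UGT73 median was the value of UGT73D1. Like UGT73C1 and UGT73C2, UGT73D1 was below background on every 35S:AGL15 and double mutant array, so this median has no measured fold behind it.

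**Figure D2:**
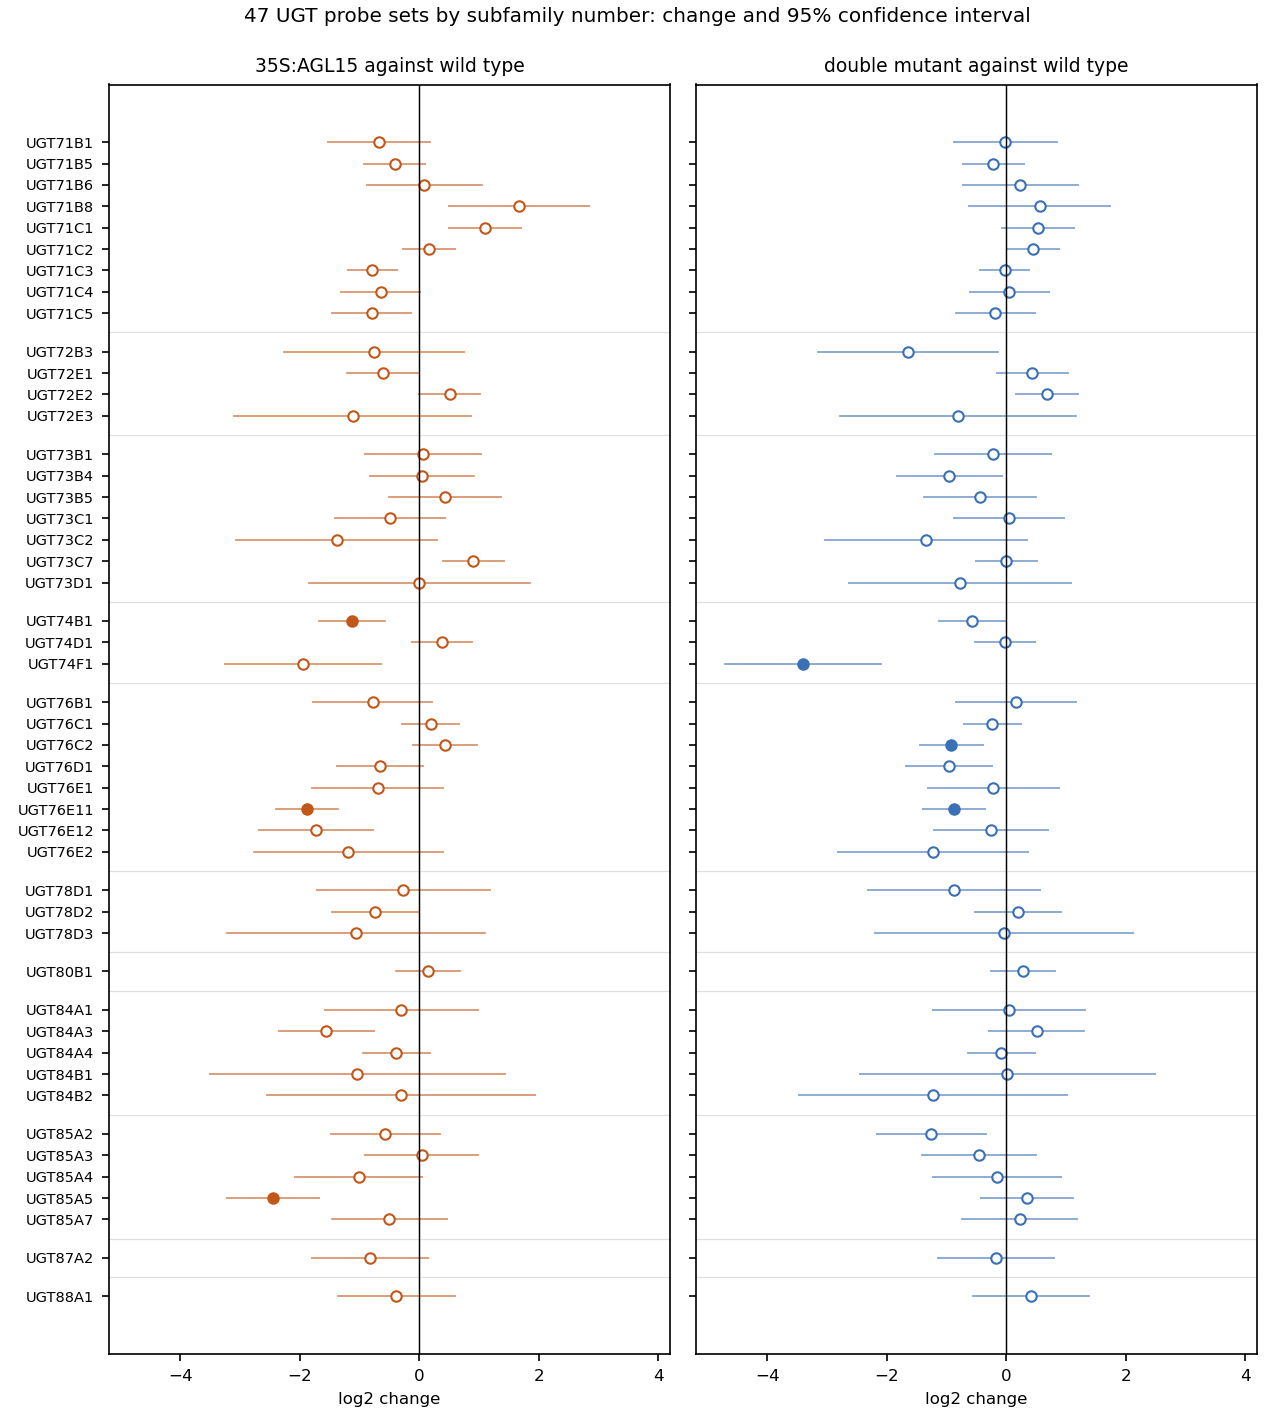
Log2 change of each of the 47 UGT probe sets against wild type, with its 95% confidence interval, for 35S:AGL15 (left) and the double mutant (right), ordered by subfamily number down the page. Filled points passed the threshold, and for probe sets below background the change is a fitted value with no fold behind it. In 35S:AGL15, 33 of 47 points lie below 0, beside 13551 of all 22746 probe sets.

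Many members stand next to each other in the genome. By the gene order of the TAIR10.1 reference, 30 members fell into 13 runs with at most 1 gene between neighbours. In the run UGT71C5, UGT71C4 and UGT71C3 the log2 changes in 35S:AGL15 against wild type were −0.80, −0.65 and −0.79, and those in the double mutant were −0.18, 0.06 and −0.03. These 3 neighbours thus had like values in each comparison, with no call against wild type. UGT76E12 and UGT76E11 had −1.73 and −1.88 in 35S:AGL15, but −0.25 and −0.87 in the double mutant.

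Other runs held unlike neighbours. UGT84A3 and UGT84A4 had −1.56 and −0.39 in 35S:AGL15, and their neighbour UGT84A1 was below background on all arrays. UGT85A7, UGT85A2, UGT85A5 and UGT85A3 had −0.50, −0.57, −2.44 and 0.04 in 35S:AGL15 cultures and 0.23, −1.25, 0.34 and −0.46 in the double mutant, so the member called in 35S:AGL15, UGT85A5, was not the one with the lowest value in the double mutant, UGT85A2. UGT85A5 was below background on all 35S:AGL15 arrays, and its −2.44 turned to 0.15 with low values raised to background. UGT76C2 and UGT76C1 had −0.91 and −0.23 in the double mutant. All 47 probe sets have the plain suffix that Affymetrix gives to probe sets designed for 1 transcript, and cross-hybridisation between close copies was not tested.

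**Figure D3:**
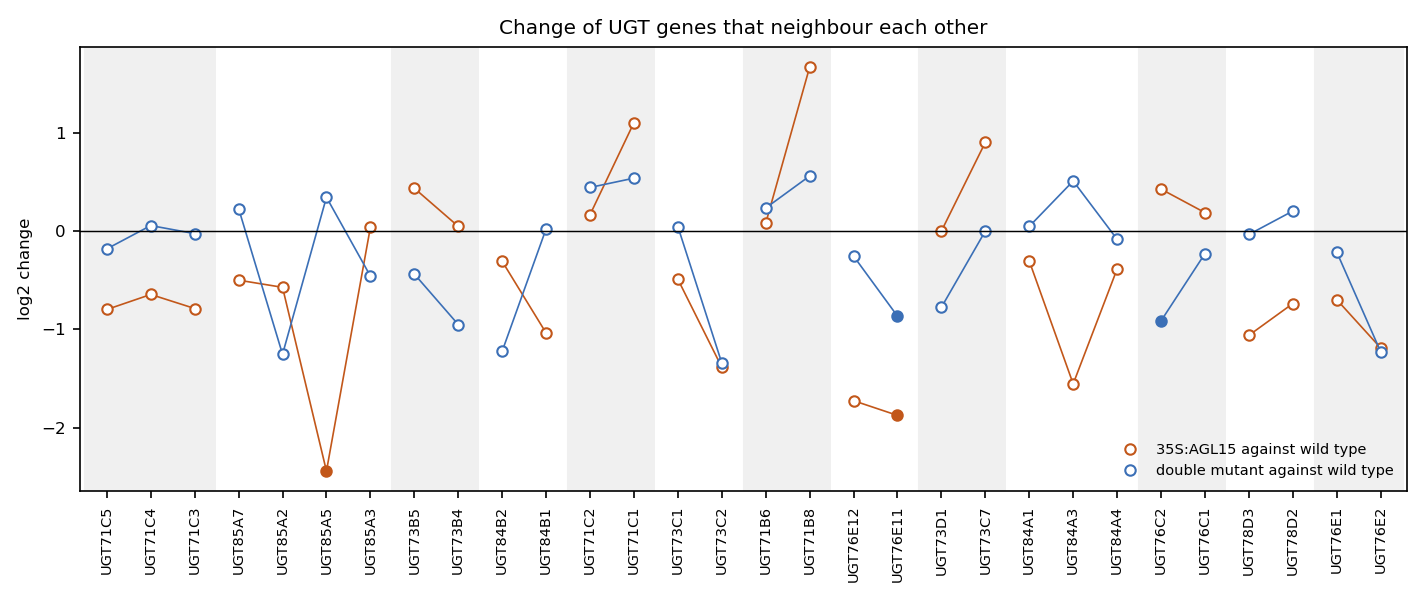
Log2 change against wild type of the 30 UGT genes that neighbour another UGT gene, in genome order, with 35S:AGL15 in orange and the double mutant in blue. Lines join the members of 1 run, shading separates the 13 runs, and filled points passed the threshold. UGT71C5, UGT71C4 and UGT71C3 lie close together, whereas UGT85A5 stands apart from its neighbours in 35S:AGL15. UGT85A5 was below background on all 35S:AGL15 arrays, and its change was 0.15 with low values raised to background.

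One 35S:AGL15 array moved against the others of its genotype. Among the 22 members above background on all 9 arrays, replicate 2 was the highest 35S:AGL15 array for 17. Over all 22746 probe sets, above background on every array or not, it was the highest for 46.2%. Relative to the wild type mean, the median log2 level of the 22 was −0.68, 0.05 and −0.64 on 35S:AGL15 replicates 1, 2 and 3. It was −0.34, 0.14 and 0.12 on the double mutant replicates and 0.21, −0.02 and −0.22 on the wild type replicates. Wild type replicate 1 was the highest of its genotype for 17 of the 22 and replicate 3 the lowest for 17. Double mutant replicate 1 was the lowest of its genotype for 16. Over all 22746 probe sets these 3 counts were 8407, 9657 and 9036. Replicate 2 of 35S:AGL15 had an array median of 195, near the wild type arrays, against 157 and 146 on its 2 fellow arrays.

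Leaving out 35S:AGL15 replicate 2 gave 8 members that fell against wild type, where all arrays gave 3. Over all probe sets the number that fell was 1388 without that array and 525 with it, so the gain was not shown to be particular to the UGTs. Those added were UGT71B1 (−1.10), UGT71C3 (−0.86), UGT74F1 (−2.43), UGT78D2 (−1.11) and UGT84A3 (−1.79). Without replicate 1 of 35S:AGL15 the number was 1. All 3 arrays are labelled alike, and the main values keep all 3.

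**Figure D4:**
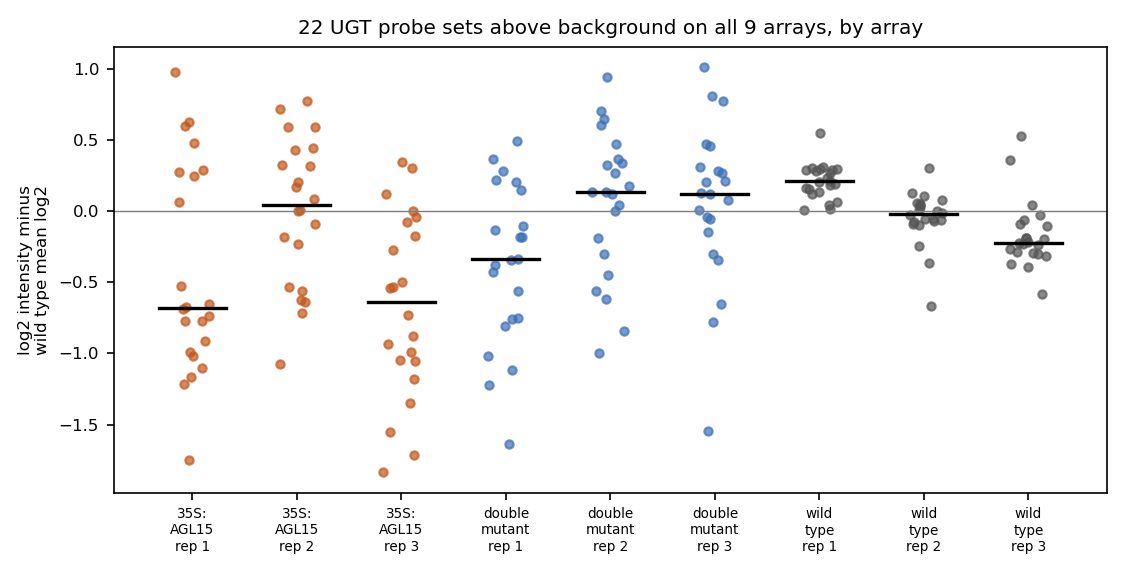
Log2 intensity of the 22 UGT probe sets above background on all 9 arrays, minus the mean log2 intensity of the same probe set in wild type, by array. Points are probe sets and black bars are medians. The medians of 35S:AGL15 replicates 1 and 3 are −0.68 and −0.64, and that of replicate 2 is 0.05.

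How many members were higher or lower depended on how the arrays were put on 1 scale. In the double mutant against wild type the deposited scaling gave 0 higher and 3 lower members. Quantile normalization gave 4 higher and 2 lower, median centring 6 higher and 1 lower, and spike-in scaling 0 higher and 10 lower. Over all probe sets the calls shifted the same way, with 886 higher and 3418 lower as deposited, 1633 and 2101 after quantile normalization, 4082 and 1576 after median centring, and 72 and 7372 after spike-in scaling. The median over all probe sets moved too. It was −0.16 as deposited and 0.06, 0.36 and −0.96 under these 3 scalings.

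Median centring and spike-in scaling shift all probe sets alike. They thus cannot alter the distance between the UGT median and that of all probe sets. In 35S:AGL15 against wild type that distance was −0.45 as deposited and −0.46 under quantile normalization. For the double mutant it was 0.00 as deposited and 0.11 under quantile normalization. Between 35S:AGL15 and the double mutant it was −0.36 and −0.35. With low values raised to background the distance in 35S:AGL15 against wild type was 0.04, and many members then sat at the background level. Among the 22 members above background on all arrays, the medians against wild type were −0.49 for 35S:AGL15 and −0.02 for the double mutant, beside −0.11 and −0.15 over all probe sets detected in the same way.

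**Figure D5:**
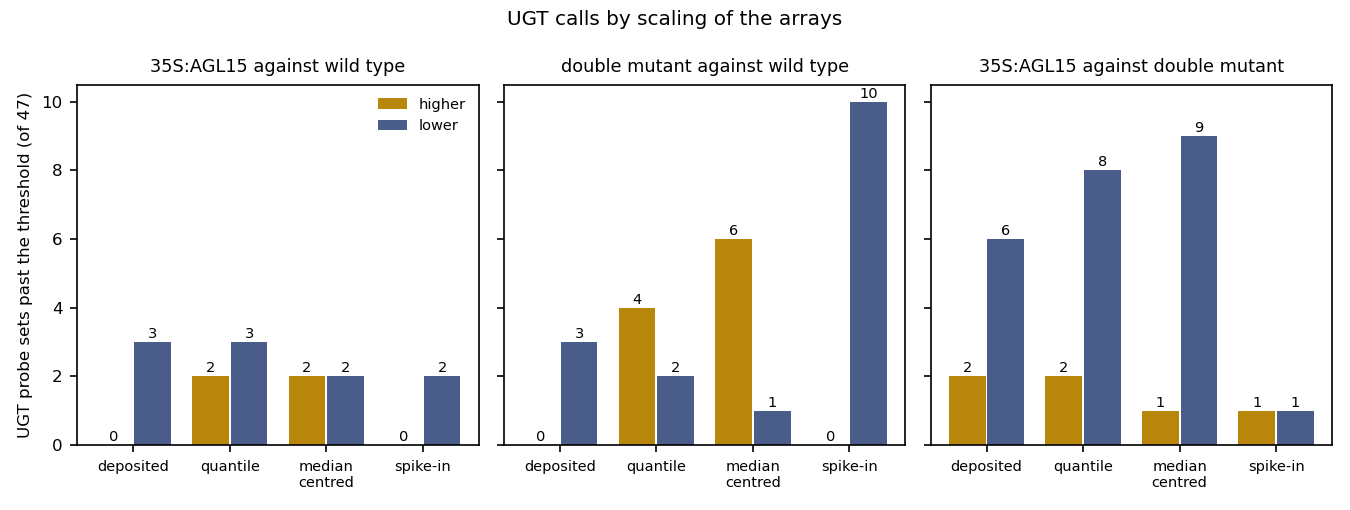
Number of the 47 UGT probe sets past the threshold, higher and lower, under the deposited scaling and 3 others. Panels are the 3 comparisons. The calls in the double mutant against wild type are 0 higher and 3 lower as deposited, 6 and 1 after median centring, and 0 and 10 after spike-in scaling.

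A further 11 UGT symbols of the reference have no probe set of their own in the annotation used. Of these, UGT73B2 and UGT73B3 share 1 probe set, which had 322, 711 and 336 in 35S:AGL15 cultures, 304, 706 and 584 in the double mutant and 841, 693 and 662 in wild type and was not called. The probe sets that UGT89B1 and UGT71D1 each share with another locus were not called either, with log2 changes against wild type of −0.54 and 0.09 for 35S:AGL15 and 0.04 and −0.10 for the double mutant. UGT73C6, UGT74E2, UGT74F2, UGT75B1, UGT75B2, UGT84A2 and UGT85A1 were not analysed here. The 44 members not called in 35S:AGL15 against wild type had log2 changes from −1.95 to 1.67, and 20 of the 47 members were called under no setting tried. The matching number over all probe sets was not counted, so the 20 are not read as many or few.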

How the data were processed

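The authors deposited 1 linear intensity per probe set and array in a table of 9 arrays. How the probes were summarised, and with which software, is not given in the sources used here. On every array the mean without the top and bottom 2% of values was 500.04 to 500.06, and medians were not equal. The 64 control probe sets among 22810 were left out. Log2 of the values was taken without an offset, and group means were fitted to all 9 arrays and 22746 probe sets with limma 3.58.1 in R 4.3.3 (lmFit, eBayes). P-values are two-sided, adjusted by Benjamini-Hochberg over all probe sets within a comparison, with 0.05 as threshold; "called", "rose" and "fell" refer to it. The number of arrays limits the precision, and p-values measure the spread between arrays labelled as biological replicates.

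Probe sets were named through the array annotation and the TAIR10.1 gene table, which gave 1 gene to 13513, several to 503 and none to 8730. Neither gives positions for the authors' build, so none are printed. Folds are given where at least 2 of 3 arrays of the dimmer group were above background, and as a bound where none was.

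The UGT members, the gene lists and the tests were chosen with earlier results of these data known, and the grouping by acceptor was made after the values were seen. Members past the threshold in any comparison were named in full. Others were named where groups did not overlap and the log2 change was at least 1, or where they belong to a subfamily or gene run described. Of a gene list, up to 3 called genes a comparison were named. The listed glucosinolate, cytokinin, abscisic acid and brassinosteroid genes had no probe set of their own in the annotation used and were not analysed here. The 8730 probe sets that were given no gene were not searched for them. In the salicylate list BSMT1, the 1 measured of 12, was below background on all arrays.

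The replicate numbers were checked for pairing. Over all probe sets no same-numbered pair of 9 had a correlation of deviations over 0.1 (−0.09 to 0.03). Over the brightest 60% of probe sets 3 of the 9 did (−0.49 to 0.36), and wild type replicate 1 with 35S:AGL15 replicate 2 reached 0.68. Since not every pair passed, the numbers were not used as pairs. The fit was tested on simulated data. Alternatives were 3 other scalings, a filter on the dimmest 40%, 2 treatments of low values, a fit on 2 groups, a replicate block, an intensity trend, a 1.5-fold minimum and leaving out each array.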

Additional observations from a re-analysis of the deposited data

How the results depend on the processing

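With 3 arrays a genotype, and 22 of 47 members above background on every array, small changes and dim members are poorly measured. In 35S:AGL15 against wild type, members past the threshold were 3 as deposited and 5 under quantile normalization. They were 8 with low values raised to background, 5 with an offset of 32 and 6 with an intensity trend. Leaving out 1 array gave 1 to 8. Over all probe sets the same settings gave 838, 815, 1417, 1525 and 1236, and 191 to 1867 without 1 array. In the double mutant against wild type, 3 as deposited became 6 under quantile normalization, 7 under median centring and 10 under spike-in scaling. The offset gave 6, and leaving out 1 array gave 1 to 4. Over all probe sets these settings gave 4304, 3734, 5658, 7444 and 5839, and 1829 to 5673 without 1 array. Between 35S:AGL15 and the double mutant, 8 as deposited became 2 under spike-in scaling and 2 in a fit on those genotypes alone. Without 1 array the number was 3 to 9. Over all probe sets these settings gave 3567, 2518 and 867, and 1032 to 4192 without 1 array. With the replicate block the counts were 2, 2 and 5 in these 3 comparisons, beside 320, 3343 and 2066 over all probe sets. Since the arrays share only a number, the lower counts are not read as weaker effects. The change of UGT85A5 in 35S:AGL15 against wild type reversed to 0.15 with low values raised to background. A term for the 4 arrays with brighter spike-ins, chosen after the data were seen, left 2, 0 and 0 members by limma. Over all probe sets it left 566, 6 and 290 in the same 3 comparisons. That term holds all double mutant arrays, so it and the genotype cannot be told apart except through 35S:AGL15 replicate 3. The causes of these shifts were not tested. The brightest probe set per gene gave no other value, since each gene has 1. The other counts of called members stayed within 1.5 times. No other called change reversed, whereas uncalled changes did, since under spike-in scaling 0 of the 47 members lay above 0 in the double mutant against wild type, against 18 as deposited.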

Other observations

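A further 4 probe sets belong to genes whose UGT number the reference lists only among older names. GT72B1 (AT4G01070), which glucosylates foreign phenols such as chlorophenols, had 205, 173 and 214 in 35S:AGL15 cultures, 296, 345 and 368 in the double mutant and 377, 441 and 304 in wild type. The 35S:AGL15 arrays were below all others. Its log2 change was −0.91 against wild type (limma adjusted p = 0.0485) and −0.77 against the double mutant (adjusted p = 0.0372). The sterol glucosyltransferase gene SGT (AT3G07020) had 680.1, 820.4 and 480.0 in 35S:AGL15 cultures, 562, 462 and 465 in the double mutant and 871, 681 and 622 in wild type, with no call. UF3GT had 37.3, 48.2 and 48.3 in 35S:AGL15 cultures, 185, 92.8 and 53.1 in the double mutant and 68.5, 82.5 and 86.2 in wild type. Its 35S:AGL15 arrays were below all others without a call (log2 −1.13 against the double mutant, adjusted p = 0.0977). AT5G54010 was above background on 1 of 9 arrays.

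The order of the 3 genotype means, which takes no account of error, was wild type, double mutant, 35S:AGL15 from high to low in 14 of the 47 members and double mutant, wild type, 35S:AGL15 in 11. In 7 members 35S:AGL15 was highest and the double mutant lowest. The same orders were not counted over all probe sets, so these counts are not read as particular to the UGTs.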
